A study of Mus musculus with 13 samples.

Results

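The 10 genes described here, Sox2, Rax, Six3, Six6, Lhx2, Pax6, Meis2, Hmga2, Sfrp2 and Fgf15, are factors known for keeping retinal progenitor cells in their dividing, uncommitted state. They were chosen by name rather than by a cut on their values, though with earlier results of these data known. The same holds for the gene lists used further on. All 10 were found among the 35734 genes of the authors' deposited comparison table and among the 15540 genes that could be tested. Retinal progenitors give rise to all neurons of the retina and to Müller glia, in an order in which ganglion cells, horizontal cells, cones and amacrine cells come mostly first and rods, bipolar cells and glia mostly last. Eye-field homeodomain factors (Rax, Six3, Six6, Lhx2, Pax6), the SOX factor Sox2, the TALE homeodomain factor Meis2, the chromatin protein Hmga2 and the secreted proteins Sfrp2 and Fgf15 are expressed in these cells. Ikaros, the zinc finger protein made from Ikzf1, is linked to the competence of early progenitors.

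RNA was measured in 8 libraries, 4 control and 4 Ikzf1. Retinas of CD1 mice at postnatal day 0 were dissociated and transfected, the controls with GFP and the Ikzf1 group with Ikzf1 joined to GFP through an IRES. Both groups were then cultured for 9 h and sorted for GFP, and no other allele or agent set them apart. Each control replicate held 400000 sorted cells and each Ikzf1 replicate 300000, so cell number and group cannot be told apart. The samples were labelled retinal progenitor cells, but the gate was GFP alone, the driver of the transfected genes was not given for these samples, and how many animals entered each replicate was not given either. The libraries held 21.4 to 30.5 M estimated read pairs. Values are CPM, read pairs relative to the library's total after scaling by the trimmed mean of M values, and each fold change is log2 of Ikzf1 over control from edgeR's quasi-likelihood test, with p adjusted over all tested genes and called below 0.05. In sorted bulk samples, fewer cells of a type and less RNA per cell cannot be told apart.

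Ikzf1 itself stood at 67.1 to 84.9 CPM in the controls and at 171588 to 188318 CPM in the Ikzf1 libraries (ENSMUSG00000018654). It took 16.0 to 17.3% of the reads that could be given to genes there, against 0.00728 to 0.00916% in the controls. Transfected and endogenous Ikzf1 transcripts cannot be told apart. The labelled cell type was checked against progenitor markers. Ccnd1, which encodes cyclin D1, and the division genes Mki67 and Top2a stood at means of 223 CPM or more in both groups. These were the most abundant of the 7 listed markers. Among the rest, Sox9 stood at a mean of 132 CPM in the controls and 34.0 CPM in the Ikzf1 libraries. The levels alone do not show which cells held these RNAs.

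Of the 10 factors, 6 were lower and 1 was higher in the Ikzf1 libraries, and 3 did not pass the test. As a share of the control level, 32.8% of Hmga2, 67.7% of Meis2, 70.3% of Sox2, 75.9% of Rax, 83.8% of Six3 and 86.9% of Fgf15 were left, while Pax6 rose by 24.6%. Lhx2, Six6 and Sfrp2 were not called. Among all 15540 genes tested, 59.3% were called, 29.9% lower and 29.4% higher, so 7 calls among 10 genes lie close to the share of the whole table. The median log2 fold change of the 10 genes was -0.27, against 0.00 for all genes tested. In 7 genes no control library overlapped an Ikzf1 library in CPM (6 lower, 1 higher), against 53.2% of all genes tested (26.7% lower, 26.5% higher). Six3 was among the 7 only narrowly, with 149.5 CPM in its lowest control against 149.4 CPM in its highest Ikzf1 library. The authors' deposited table called 6 of the 10, against 41.8% of its own 19121 genes with an adjusted p, and differed from the calls here only in Fgf15.

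**Figure D1:**
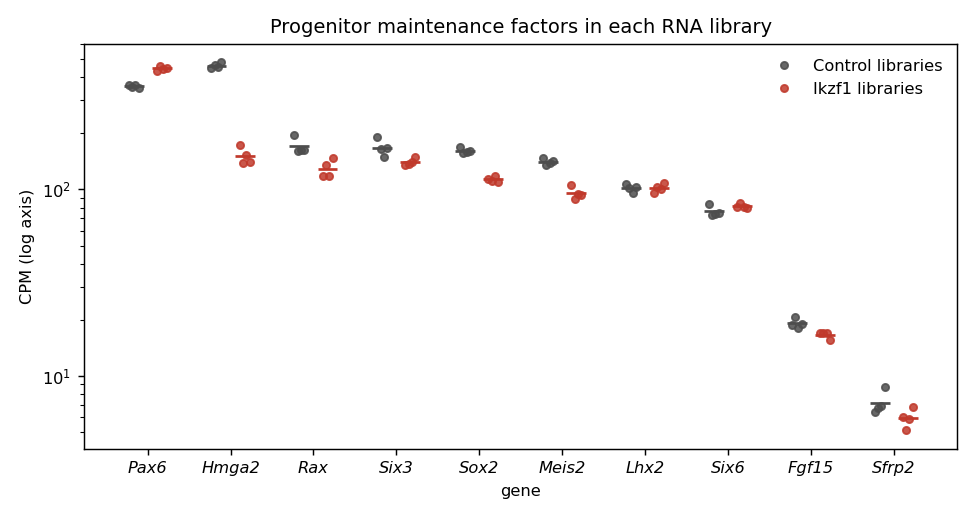
Level of each progenitor factor in every library, in CPM on a log axis, for the 4 control libraries (grey) and the 4 Ikzf1 libraries (red), with bars at the group means. Hmga2 shows the widest gap, from a mean of 461 to 152 CPM, Pax6 stands higher in the Ikzf1 libraries, and the groups overlap for Lhx2, Six6 and Sfrp2.

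The 250 bases before the gene's start in RefSeq are shown for the 4 genes with the smallest adjusted p, since Hmga2, Sox2 and Meis2 fell together while Pax6 rose. Sequences are from RefSeq (GRCm38.p6), read 5′ to 3′ along the gene's own strand, at chr10:120476470-120476719 (minus strand) for Hmga2, chr3:34649745-34649994 (plus strand) for Sox2, chr2:116064620-116064869 (minus strand) for Meis2 and chr2:105668646-105668895 (plus strand) for the first of the Pax6 starts. The RefSeq starts need not be those of the authors' table, and the Meis2 window lies inside the gene as that table places it. Capitals mark a SOX-type motif, ACAAAG or its reverse CTTTGT.
Hmga2: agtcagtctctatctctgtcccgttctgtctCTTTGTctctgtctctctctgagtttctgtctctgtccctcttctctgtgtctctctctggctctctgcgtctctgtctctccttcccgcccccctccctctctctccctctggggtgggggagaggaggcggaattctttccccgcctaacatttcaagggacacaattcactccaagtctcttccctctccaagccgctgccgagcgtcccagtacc
Sox2: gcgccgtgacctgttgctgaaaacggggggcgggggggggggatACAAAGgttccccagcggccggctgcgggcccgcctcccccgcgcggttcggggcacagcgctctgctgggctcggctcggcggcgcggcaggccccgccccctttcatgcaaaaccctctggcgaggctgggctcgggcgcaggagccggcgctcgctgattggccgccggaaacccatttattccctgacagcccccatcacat
Meis2: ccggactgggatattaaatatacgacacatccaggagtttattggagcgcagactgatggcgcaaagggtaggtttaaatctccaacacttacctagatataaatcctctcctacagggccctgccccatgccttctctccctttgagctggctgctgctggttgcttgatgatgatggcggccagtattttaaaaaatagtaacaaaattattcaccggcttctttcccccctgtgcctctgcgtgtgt
Pax6: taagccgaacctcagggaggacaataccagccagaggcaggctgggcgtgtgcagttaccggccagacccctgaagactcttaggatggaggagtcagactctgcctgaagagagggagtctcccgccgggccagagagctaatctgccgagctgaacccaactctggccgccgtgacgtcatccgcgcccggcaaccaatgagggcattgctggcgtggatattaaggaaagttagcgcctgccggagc

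These windows were searched on both strands for TGGGAA, the core letters of Ikaros-type sites, for ACAAAG and for TAATTA, a homeodomain-type motif. No searched motif overlapped another where one was found. The SOX-type motif began 219 bases before the Hmga2 start, on the reverse strand, and 206 bases before the Sox2 start, on the forward strand. The windows of Meis2 and of the first Pax6 start held none of the searched motifs. RefSeq entries were found for 8 of the 10 genes, with 10 windows in all because Pax6 and Lhx2 have several starts. TGGGAA lay in both Lhx2 windows and in no other, and ACAAAG lay also in the window of the second Pax6 start. TAATTA lay in none. Among 32851 RefSeq windows of the same length, TGGGAA was found in 21.6%, ACAAAG in 16.5% and TAATTA in 4.84%. Rax and Fgf15 are named only.

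Hmga2 encodes an AT-hook protein that bends DNA and opens chromatin, is high in young neural stem cells, and is a known target of the let-7 microRNAs (ENSMUSG00000056758, GRCm38 chromosome 10, 120361275 to 120476469, minus strand). It stood at 445, 464, 455 and 480.2 CPM in the 4 control libraries and at 173, 139.5, 152 and 141 CPM in the Ikzf1 libraries. Every control lay far above every Ikzf1 library, and the first Ikzf1 library was the highest of its group. The mean went from 461 ± 14.8 to 152 ± 15.6 CPM (SD, n = 4 each), 3.04-fold lower in the fit, a log2 fold change of -1.61 ± 0.06 (SE) with an adjusted p of 4.31e-17 by edgeR. Only 2.01% of all genes tested, 312 genes with Hmga2 itself among them, had a fold change this low or lower. Under 16 alternatives, its fold change ranged from -1.67 to -1.53.

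Meis2 encodes a TALE homeodomain protein that binds DNA together with PBX partners and acts on Pax6 in the early eye (ENSMUSG00000027210, chromosome 2, 115863064 to 116065839, minus strand). Its control libraries held 147, 135, 139 and 142 CPM and its Ikzf1 libraries 106, 88.5, 94.3 and 93.0 CPM. All 4 Ikzf1 libraries lay below all 4 controls. The log2 fold change was -0.56 ± 0.05 (SE, n = 4 each, edgeR adjusted p 8.43e-11).

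Sox2 encodes an HMG-box factor required for the neural competence of retinal progenitors (ENSMUSG00000074637, chromosome 3, 34650405 to 34652461, plus strand). It stood at 169, 156, 158 and 161 CPM in the controls and at 113, 111, 118 and 109.8 CPM in the Ikzf1 libraries. The spread within each group was small, with an SD of 5.44 CPM in the controls and 3.75 CPM in the Ikzf1 libraries, and the groups were far apart. The log2 fold change was -0.51 ± 0.04 (SE, edgeR adjusted p 3.98e-11).

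The eye-field factors went different ways. Rax, a homeodomain factor without which no eye forms (ENSMUSG00000024518, chromosome 18, 65928277 to 65939787, minus strand), stood at 197, 161, 163 and 162 CPM in the controls and at 118, 134, 118.5 and 147 CPM in the Ikzf1 libraries. The first control stood above the other 3, and the Ikzf1 libraries were spread more widely than those of Sox2, but the groups did not overlap. The log2 fold change was -0.40 ± 0.09 (SE, edgeR adjusted p 0.00348). Without the first control it was -0.32 (adjusted p 1.29e-04).

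Six3 and Six6 encode closely related homeodomain repressors of the sine oculis family. Six3 (ENSMUSG00000038805, chromosome 17, 85613608 to 85629302, plus strand) stood at 189.9, 164.9, 149.5 and 166.1 CPM in the controls and at 135.5, 136.7, 139.9 and 149.4 CPM in the Ikzf1 libraries. The third control and the fourth Ikzf1 library almost met, while the other libraries were apart. In TPM without the Ikzf1 transcripts the groups overlapped, at 109.7 in the third control against 114.7 in the fourth Ikzf1 library. The log2 fold change was -0.26 ± 0.06 (SE, edgeR adjusted p 5.54e-04). Six6 (ENSMUSG00000021099, chromosome 12, 72939892 to 72944899, plus strand) stood at 83.9, 72.5, 74.2 and 74.9 CPM in the controls and at 80.8, 84.5, 80.8 and 79.4 CPM in the Ikzf1 libraries. The first control lay within the Ikzf1 range and the other 3 below it. The difference was 0.09 (95% interval -0.01 to 0.19, edgeR adjusted p 0.119) and was not called; without the first control it was 0.14 and passed (adjusted p 0.0171). Six6 also passed under scaling by total reads without Ikzf1 (0.15, adjusted p 0.0142) and under limma on log2(TPM + 0.1) or log2(TPM + 1) (0.16, adjusted p 0.0431 in both).

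Lhx2 encodes a LIM homeodomain factor of the eye field and of Müller glia (ENSMUSG00000000247, chromosome 2, 38339281 to 38369733, plus strand). Its values were 107, 101, 95.5 and 103 CPM in the controls and 96.1, 103, 101 and 108 CPM in the Ikzf1 libraries. The groups covered the same range, and the 95% interval of the log2 fold change ran from -0.09 to 0.10 around 0.01 (edgeR adjusted p 0.930). A change of the size seen in Sox2 or Pax6 lies outside this interval. Under limma on log2(TPM + 0.1) the fold change of Lhx2 was 0.12, above the interval, and it was not called (adjusted p 0.172).

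Pax6, a paired homeodomain factor that keeps progenitors multipotent and is also retained in amacrine and ganglion cells (ENSMUSG00000027168, chromosome 2, 105668900 to 105697364, plus strand), was the only one of the 10 called higher. It stood at 365, 354, 363 and 351 CPM in the controls and at 433, 461, 445 and 446 CPM in the Ikzf1 libraries. All Ikzf1 libraries lay above all controls, and the spread within a group was 1.86% of the mean in the controls against 2.56% in the Ikzf1 libraries. The log2 fold change was 0.32 ± 0.04 (SE, edgeR adjusted p 1.24e-07), from 358 ± 6.65 to 446 ± 11.4 CPM (SD, n = 4 each). Without scaling for the Ikzf1 reads, the deposited TPM of Pax6 was nearly level, at 368 in the controls against 372 in the Ikzf1 libraries.

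The secreted proteins were the least abundant of the 10. Fgf15, a fibroblast growth factor made by mouse retinal progenitors (ENSMUSG00000031073, chromosome 7, 144896531 to 144900953, plus strand), stood at 18.73, 20.59, 18.08 and 19.10 CPM in the controls and at 16.88, 17.07, 16.98 and 15.57 CPM in the Ikzf1 libraries. The groups did not overlap but lay close together, and the log2 fold change of -0.20 ± 0.08 (SE) had an edgeR adjusted p of 0.0236. This call was lost in 6 of 16 alternatives, whose adjusted p ranged from 0.0193 to 0.0979 in all. It was lost without the second control (-0.17, adjusted p 0.0933) and without the fourth Ikzf1 library (-0.17, adjusted p 0.0787), and the authors' deposited table gave -0.20 with an adjusted p of 0.0567. Sfrp2, a secreted protein that binds Wnt ligands (ENSMUSG00000027996, chromosome 3, 83766321 to 83774316, plus strand), stood at 6.44, 6.75, 6.85 and 8.73 CPM in the controls and at 6.00, 5.10, 5.89 and 6.77 CPM in the Ikzf1 libraries. The groups overlapped, and each value rested on 116 to 251 read pairs. The log2 fold change of -0.28 (95% interval -0.54 to -0.01, edgeR adjusted p 0.0661) was not called. It passed without the first control (-0.33, adjusted p 0.0419) and without the fourth Ikzf1 library (-0.34, adjusted p 0.0407).

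Levels were compared between genes per transcript length, as TPM with the Ikzf1 transcripts taken out and each library scaled back to its full total. In the controls Pax6 was highest at 368 ± 9.84 TPM, followed by Hmga2 at 245 ± 9.11, Rax at 194 ± 18.1 and Sox2 at 160 ± 4.41 TPM (SD, n = 4). Six3 at 123 ± 11.9, Meis2 at 99.0 ± 4.30, Lhx2 at 84.9 ± 3.05, Six6 at 37.4 ± 2.24, Fgf15 at 22.0 ± 1.18 and Sfrp2 at 7.49 ± 1.06 TPM came after them. No neighbours in this order overlapped in any control library. Among the genes tested, the control level of Pax6 stood at percentile 97.8, that of Hmga2 at 96.5, that of Sox2 at 93.7 and that of Sfrp2 at 32.7.

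In the Ikzf1 libraries Hmga2 moved from rank 2 to rank 6, at 84.2 ± 7.65 TPM, and Lhx2 moved from rank 7 to rank 5, at 92.8 ± 9.61 TPM. Pax6 stayed first at 454 ± 22.4 TPM, with Rax at 151 ± 18.9, Sox2 at 118 ± 3.39 and Six3 at 105 ± 6.80 TPM behind it. Lhx2 overlapped both Six3 above it and Hmga2 below it, so its place between them is within the spread, while every Six3 library lay above every Hmga2 library. Meis2 at 72.0 ± 3.73, Six6 at 41.8 ± 1.15, Fgf15 at 19.9 ± 0.674 and Sfrp2 at 6.66 ± 0.954 TPM closed the order. The ratio of Pax6 to Hmga2 went from 1.503 to 5.39, and that of Pax6 to Sox2 from 2.30 to 3.85. Of the summed TPM of the 10 genes, Pax6 held 27.4% in the controls against 39.7% in the Ikzf1 libraries, and Hmga2 18.3% and 7.36%.

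**Figure D2:**
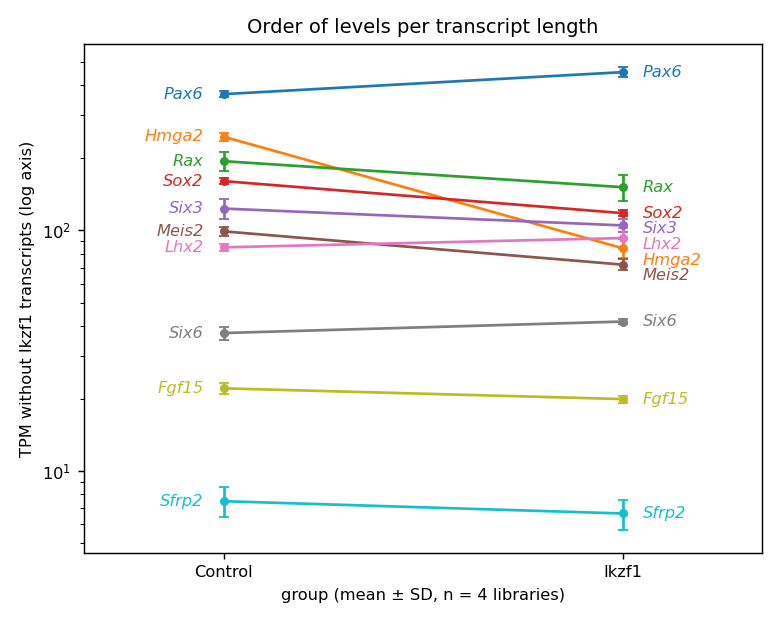
Mean level per transcript length of the 10 factors in control and Ikzf1 libraries, in TPM without the Ikzf1 transcripts on a log axis, with SD bars (n = 4). The line of Hmga2 drops from 245 to 84.2 TPM and crosses those of Rax, Sox2, Six3 and Lhx2, while Pax6 rises from 368 to 454 TPM.

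The make-up of the 10 genes was also described within each library, as log2 CPM relative to the median of the 10, a scale that needs no scaling between libraries. Hmga2 went from 1.62 ± 0.08 above that median in the controls to 0.47 ± 0.13 above it in the Ikzf1 libraries (SD, n = 4 each). Pax6 went from 1.26 ± 0.06 to 2.04 ± 0.05. Six6, Lhx2, Fgf15 and Six3 also stood higher within their libraries, by 0.55, 0.46, 0.26 and 0.21, with no overlap between groups. Sox2, Meis2, Rax and Sfrp2 overlapped on this scale. The median itself moved with the 6 lower genes, so these differences describe shares among the 10 and no absolute change.

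The deposited files resolve transcripts, and 11 transcripts of Rax, Six3, Lhx2, Pax6 and Meis2 with a mean share of 10 to 90% of their gene's TPM were compared by exact permutation tests, two-sided, where 4 against 4 libraries allow no p below 0.0286. None passed after adjustment over the 11, and 4 reached that smallest unadjusted p (adjusted p 0.0786 each). With this floor, a transcript could pass only if most of the 11 reached it together. The lack of a call therefore does not show that shares were unchanged. The main Rax transcript (ENSMUST00000025396, 1672 nt) held 76.8, 76.2, 74.9 and 77.4% of Rax in the controls and 70.6, 72.9, 71.2 and 72.5% in the Ikzf1 libraries. A longer Rax transcript (ENSMUST00000237710, 2856 nt) held 14.9% ± 1.06 and 19.0% ± 1.66 (SD, n = 4 each). The main Six3 transcript (ENSMUST00000175898, 2419 nt) held 73.3% ± 1.53 in the controls against 66.5% ± 4.08 in the Ikzf1 libraries, and a longer one (ENSMUST00000176081, 3680 nt) 23.3% ± 1.74 and 29.6% ± 3.86. In these 4 transcripts the groups did not overlap, and in both genes the shorter main form stood lower and the longer form higher. The 7 transcripts of Lhx2, Pax6 and Meis2 overlapped between groups. For Pax6, with 26 transcripts in the files, the larger shares went from 26.1 to 24.1% and from 18.7 to 15.1%, within their spread. Sox2 and Six6 have 1 transcript each in the files, and the main transcript of Hmga2 held 93.4 to 95.6% of its TPM in every library. Shares within genes of many transcripts are estimates that move between similar transcripts.

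**Figure D3:**
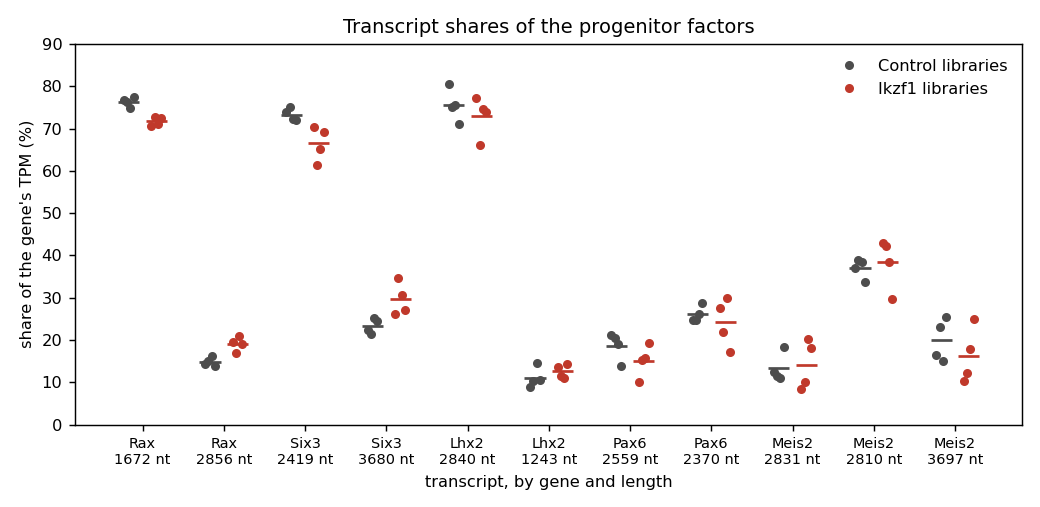
Share of each transcript in its gene's TPM, in percent, for every control library (grey) and Ikzf1 library (red), with bars at the group means. The main Rax and Six3 forms lie lower and their longer forms higher in the Ikzf1 libraries, and the Lhx2, Pax6 and Meis2 transcripts overlap between groups.

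Relatives and partners of the 10 factors showed no common direction. Of 35 such genes tested, 14 were higher, 13 were lower and 8 were not called, with a median log2 fold change of -0.01. The 59.3% called among all genes is the background for this count. Among those higher, Eya4, which encodes a phosphatase partner of sine oculis proteins, went from 2.66 ± 0.667 to 17.6 ± 1.27 CPM (log2 fold change 2.74 ± 0.13 SE). Pbx3, a TALE partner of MEIS proteins, went from 20.2 ± 1.62 to 57.4 ± 2.33 CPM (1.51 ± 0.06), and Sfrp1, a Wnt-binding relative of Sfrp2, from 9.00 ± 1.63 to 24.0 ± 1.04 CPM (1.42 ± 0.10). In each of these genes every Ikzf1 library lay above every control, and the largest edgeR adjusted p of the 3 was 9.65e-13.

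Among those lower, Igf2bp1, an RNA-binding protein of fetal tissues, went from 135 ± 8.75 to 64.4 ± 3.96 CPM (log2 fold change -1.07 ± 0.05 SE). Hmga1, the closest relative of Hmga2, went from 729 ± 44.0 to 460.0 ± 12.5 CPM (-0.67 ± 0.05), and its counts are uncertain because the mouse genome holds near-identical copies of it. Six4, a sine oculis relative of Six3 and Six6, went from 9.95 ± 1.51 to 3.22 ± 0.698 CPM (-1.62 ± 0.15). The groups did not overlap in any of these, and the largest edgeR adjusted p was 3.29e-10.

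By family, Sox3 and Sox21 fell like Sox2, while Sox1 and Sox14, at means under 2 CPM in both groups, rose. Six2 rose, and Six4 and Six5 fell. Dach1 and Dach2, which encode co-repressors that work with sine oculis and EYA proteins, rose with Eya4, and Eya1, Eya2 and Eya3 were not called. Lhx9 rose, and Ldb1, Ldb2 and Lmo4, whose products bind LIM domains, fell. Of the TALE genes, Meis3 and Pbx3 rose, Pknox2 fell, and Meis1, Pbx2 and Pbx4 were not called. Pax2 and Sfrp4 fell, Fgf9 rose, and Fgf3 was not called. Lin28b, which encodes an inhibitor of let-7 processing, went from 2.38 to 6.50 CPM and Igf2bp3 fell, while Igf2bp2 was not called. Vsx1, Sfrp5, Frzb, Fgf8 and Lin28a were too low to be tested, and Pknox1 could not be joined to its transcripts.

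**Figure D4:**
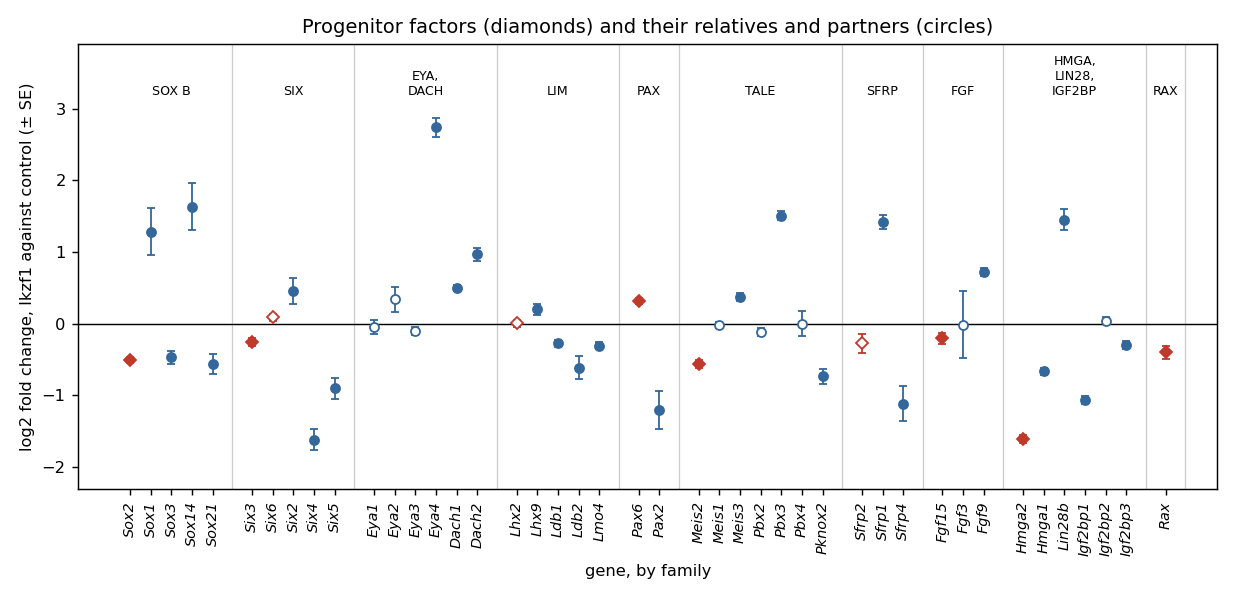
Log2 fold change, Ikzf1 over control, with SE bars, for the 10 factors (diamonds) and relatives and partners of theirs (circles), by family. Filled symbols passed the test and open ones did not, and most families hold points on both sides of 0, from Eya4 at 2.74 to Six4 at -1.62.

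Other genes known from retinal progenitors were mostly lower. Of 23 tested, 16 were lower, 3 were higher and 4 were not called, against 29.9% called lower and 29.4% called higher among all genes tested. Their median was -0.54, against 0.00 for all genes tested. Sox9, an HMG-box factor of progenitors and Müller glia, went from 132 ± 9.16 to 34.0 ± 2.58 CPM (log2 fold change -1.95 ± 0.06 SE), a larger fall than that of Hmga2. Ccnd1 went from 429 ± 19.5 to 223 ± 9.57 CPM (-0.94 ± 0.05). In both genes the groups were apart, with edgeR adjusted p of at most 1.37e-16.

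The 3 genes called higher were Top2a, Mki67 and Cdon, while Ccnd1, which encodes cyclin D1, was lower. Top2a, which encodes a topoisomerase of dividing cells, went from 329 ± 19.0 to 401 ± 24.1 CPM (0.28 ± 0.05 SE, edgeR adjusted p 1.08e-05). Mki67 went from 418 ± 34.9 to 457 ± 18.5 CPM (0.13 ± 0.05, adjusted p 0.0314) with overlapping groups. The call was lost in 8 of 16 alternatives, among them leaving out the first control (0.08, adjusted p 0.172), the third control (0.12, adjusted p 0.0785), the first Ikzf1 library (0.12, adjusted p 0.0742) or the third Ikzf1 library (0.11, adjusted p 0.0891). Cdon, a receptor component of hedgehog signalling, went from 98.4 ± 2.51 to 107 ± 6.18 CPM (0.13 ± 0.05, adjusted p 0.0220). Its call was lost without the fourth control (0.11, adjusted p 0.0779), the third Ikzf1 library (0.12, adjusted p 0.0545) or the fourth Ikzf1 library (0.09, adjusted p 0.0942).

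Of 4 genes on the opposite strand of or overlapping a factor, 1 was found in the authors' table. This was 4930447C04Rik, in RefSeq the same gene as Six6os1, which overlaps the start of Six6 on the opposite strand. It went from 17.4 ± 2.19 to 21.1 ± 2.41 CPM (log2 fold change 0.27 ± 0.09 SE, edgeR adjusted p 0.0132), with overlapping groups. The call was lost without the fourth control (0.20, adjusted p 0.0736), without the second Ikzf1 library (0.22, adjusted p 0.0580) and with an offset for transcript length (0.31, adjusted p 0.0541). Whether the authors' counting used strand is not given in the sources used here, so reads of Six6 and of this gene may not be told apart. Sox2ot, Six3os1 and Pax6os1 were not analysed here.

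Markers of cell types were summed in each library, and their counts of calls stand beside 29.9% called lower and 29.4% called higher among all genes tested. The 7 progenitor markers went from 1420 to 1560 CPM in the controls to 1171 to 1264 CPM in the Ikzf1 libraries (4 lower, 2 higher, 1 not called). Ganglion cell markers, 4 higher and 1 lower of 5 tested, went from 22.8 to 29.2 CPM to 67.6 to 76.8 CPM. Rod markers, 4 lower of 5, went from 47.7 to 58.0 CPM to 28.9 to 35.3 CPM. Amacrine, horizontal, cone, bipolar and Müller glia sums overlapped between groups, as did those of pigment epithelium and microglia, which reached at most 5.03 CPM. By gene, 4 of 6 amacrine markers tested and 2 of 4 cone markers tested were lower, with 0 higher in either list. Horizontal and bipolar markers were each 1 higher and 1 lower, and Müller glia markers 1 higher and 2 lower. Ciliary margin, astrocyte, pericyte and lens sums were lower in the Ikzf1 libraries and reached at most 9.33 CPM in any library. Endothelial markers went from 403 to 474 CPM to 207 to 246 CPM, of which Kdr alone held 438 and 216 CPM on average, while Pecam1 stood at 3.06 and 2.91 CPM. All 5 red blood cell genes had an authors' mean below 5 normalised counts. The part of cell make-up in the changes of the 10 factors was not tested.

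For the factors with the lowest and the highest fold change, the genes with the most similar profile over the 8 libraries were sought among 10057 genes with a mean of at least 10 CPM. For Hmga2 these were Pgm2, a phosphoglucomutase (Pearson r 0.9997, 92.1 to 31.4 CPM), Pde3a, a cyclic nucleotide phosphodiesterase (0.9994, 405 to 92.7 CPM), and Inpp5f, an inositol phosphatase (0.9993, 443 to 199 CPM). For Pax6 they were Bmt2 (0.998, 43.6 to 81.7 CPM), the DNA helicase Helb (0.996, 14.8 to 24.8 CPM) and the TBP-like factor Tbpl1 (0.996, 60.1 to 77.6 CPM). The 8 points fall into the 2 groups of libraries, so these values mostly describe that split, and 2141 genes exceeded 0.9 for Hmga2 and 1910 for Pax6. Over the same libraries Hmga2 had an r of 0.98 with Sox2 and with Meis2, 0.80 with Rax, 0.77 with Six3 and -0.11 with Lhx2.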

How the data were processed

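RNA-seq was compared between 4 control and 4 Ikzf1 libraries, grouped by their titles. The 10 genes and the lists were chosen with earlier results of these data known. The deposited files gave, for each transcript, estimated counts and TPM from Salmon, the tool named in the submitters' processing notes. Its version, index and strand setting are not given in the sources used here. The authors' deposited table, made with DESeq2 per the labels, held per gene the mean signal (normalised counts), the log2 fold change, a Wald score and p-values, per the file headers. The processing notes name mm9 and mm10 with no role, and the table's gene positions match GRCm38. All libraries were of ribosome-depleted RNA, per the labels' protocols, and are named as biological replicates there.

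The transcript files name no genes, which departs from the plan. Runs of up to 60 neighbouring transcripts were matched to each gene's deposited mean signal (relative tolerance 5e-09, library factors from 13 mitochondrial genes). A mean of 5 or more was required, and 16583 of these 16815 genes were joined (98.6%), holding 99.2 to 99.4% of the reads, while 60 with several runs and 2 with overlapping runs were left out. Slightly shifted means found a run for 0.458% of genes. Fold changes played no part. All 10 genes were joined.

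Counts were summed to genes, rounded, filtered with filterByExpr, scaled by TMM and tested with edgeR 4.0.16 (quasi-likelihood, robust, two-sided, no covariate) with Benjamini-Hochberg adjustment over 15540 genes at 0.05. An SE is the absolute log2 fold change over the square root of F. Levels between genes used TPM rescaled without Ikzf1 transcripts. Transcript shares used exact permutation tests. Named genes were all 10, Ikzf1, the 3 of smallest p in each direction of each list, genes overlapping a factor, and the 3 of highest r with Hmga2 and Pax6; the family paragraph goes through the listed relatives. Some listed genes are counted but not reported here by name. Alternatives were DESeq2 1.42.0, RLE and total-count scaling, no filter, a length offset, limma 3.58.1 on log2 TPM with a pseudocount of 0.1 or 1, a replicate block and each library left out. Scripts were tested on simulated data. At 21.4 to 30.5 M read pairs a library, depth limits Sfrp2 most. The CUT&RUN peak lists were not used here, since they are on mm9 and no gene positions on mm9 were used.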

Additional observations from a re-analysis of the deposited data

Results flagged for a closer look

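In 48 groups of 4 libraries (each of the named genes and factors in each group), the gap of the highest or lowest library to its nearest neighbour was set against Dixon's 95% critical value, which chance exceeds in about 1 of 20 groups, and 2 groups exceeded it. Rax stood at 197 CPM in Control replicate 1, against 161 to 163 CPM in the other 3 controls, a gap of 0.955 of the group's range. Fgf15 stood at 15.6 CPM in Ikzf1 replicate 4, against 16.9 to 17.1 CPM in the other 3 Ikzf1 libraries, a gap of 0.879 of the range.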

How the results depend on the processing

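Under 16 alternatives the number of genes called ranged from 7851 to 9400 around 9222, that of the 10 factors from 6 to 9 around 7, and that of relatives, partners, other progenitor genes and 4930447C04Rik together from 42 to 47 around 47. No transcript share passed in any of 10 alternatives, but in each a call would have needed most tested transcripts to reach the smallest possible p. Sox2, Rax, Six3, Pax6, Hmga2 and Meis2 kept direction and call in all 16, with ranges of -0.53 to -0.44, -0.46 to -0.32, -0.31 to -0.19, 0.24 to 0.37, -1.67 to -1.53 and -0.61 to -0.45 on the log2 scale. Lhx2 changed sign, to -0.024 without Control replicate 3 and to -0.021 without Ikzf1 replicate 4, within a range of -0.024 to 0.035 when 1 library was left out and of -0.024 to 0.12 over all 16, and was called in none. Fgf15 also lost its call under total-count scaling (-0.15), the length offset (-0.21) and limma on log2 TPM (-0.15 and -0.14 with a pseudocount of 0.1 and 1); the cause was not tested. Without 1 library, all-gene calls ranged from 8631 to 9021, calls of factors from 6 to 9 and calls of listed genes from 42 to 46. Total-count and TPM scaling moved the share of higher calls from 49.6% to 57.2 to 58.1% and the median of all genes to 0.05 to 0.06. Whether same-numbered libraries shared a preparation is not given in the sources used here. Their deviations correlated at -0.05 to 0.00. With a replicate block, 8896 genes, 7 factors and 45 listed genes were called. Sfrp2 rests on 116 to 251 read pairs a library, which limits its precision.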
